A study of Mus musculus with 4 samples.

Results

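The developmental transcription factor families studied here were the Hox, Pax, Pou, Lhx, Ascl, Sox and Fox genes and the sine oculis homeobox genes, such as Six2 to Six6, measured in cultures labelled as primary mouse pancreatic acinar cells. The members were chosen by gene symbol, with 3 symbols left out by the rule, Sox9 among them, and they made up 139 of the 23282 rows of the count tables. The choice of these families was made with earlier results of the same libraries known, so their counts and fold changes are given as a description of these cultures. The cells came from the pancreas of C57BL/6J mice and were kept with 2.5% fetal bovine serum and 25 ng/ml epidermal growth factor. For 36 h they carried an adenovirus at a multiplicity of infection of 100, which encoded ERRγ (estrogen-related receptor γ), the orphan nuclear receptor made from Esrrg, or, as the control, green fluorescent protein (GFP), with 2 libraries in each group. Both groups thus shared the strain, the growth factor, the vector and the time, and differed in the gene that the vector carried. The promoter of the vector is not given in the sources used here, nor are age and sex of the mice.

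Library preparation used 500 ng of RNA and the QuantSeq kit of Lexogen, which reads transcripts near their ends, and held 10.48 M (library 1) and 10.65 M (library 2) counts in the ERRγ group and 10.11 M and 11.01 M in the GFP group. Levels are given as counts or as CPM, which are counts scaled by TMM to a common library total, and were not divided by gene length because reads arise at a single site per transcript. A floor of 3 counts corresponded to 0.268 to 0.307 CPM. The labels do not tell whether libraries 1 and 2 of a virus were separate mice or cultures; a p-value here reflects the spread between the given libraries, and that spread may be technical. Esrrg stood at 130 and 1284 CPM in ERRγ libraries 1 and 2 and at 8.80 and 9.60 CPM in the GFP libraries, so the ERRγ libraries differed widely in the gene that was introduced. Of the acinar cell markers, 11 of 12 had counts and Ptf1a, which specifies the acinar lineage, had none in any library. The summed level of that list was 101 and 101 CPM with ERRγ and 110 and 49.7 CPM with GFP. Prss2 was the 1 of 10 tested that rose, while 7 of the 10 were lower and the median log2 fold change was −0.26. The 10 ductal cell markers summed to 8165 and 9677 CPM with ERRγ and to 12390 and 12330 CPM with GFP. Values therefore describe these cultures. In bulk RNA, fewer cells of a type and less RNA per cell cannot be told apart.

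These families encode DNA-binding proteins that set the identity of cells during embryonic development. Hox proteins, arranged in 4 chromosomal clusters, mark position along the body axis. Pou, Lhx and sine oculis homeobox proteins carry a homeodomain together with another DNA-binding or partner domain, Pax proteins share the paired domain and some of them also have a homeodomain, and many of these factors are known from the nervous system, muscle and sense organs. Ascl proteins are basic helix-loop-helix factors, Sox proteins bend DNA through a high-mobility-group box, and Fox proteins share the forkhead domain. In the pancreas, FoxA factors open chromatin in endoderm, Sox17 acts in early endoderm and the biliary system, and Pax4 and Pax6 act in islet cells.

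Promoter sequence is shown for 4 members that changed with ERRγ: Sox11 and Sox4, close relatives that moved in opposite directions, and Pou3f3 and Lhx6, which rose. Each run is from RefSeq on GRCm38.p6, 5′ to 3′ on the strand of the gene, and lies upstream of the start within the 250 bases before it. Capitals mark the letters CCAAT and the nuclear receptor half-site AGGTCA, on either strand. The Sox11 run is chr12:27342719-27342968 (minus strand), that of Sox4 is chr13:28953714-28953949 (minus strand), that of Pou3f3 is chr1:42695518-42695767 (plus strand) and that of Lhx6 is chr2:36105409-36105658 (minus strand).
Sox11: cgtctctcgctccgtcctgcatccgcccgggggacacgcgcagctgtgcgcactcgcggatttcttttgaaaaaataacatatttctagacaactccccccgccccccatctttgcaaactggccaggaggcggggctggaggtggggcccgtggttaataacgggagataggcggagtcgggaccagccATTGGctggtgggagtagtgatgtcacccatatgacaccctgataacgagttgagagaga
Sox4: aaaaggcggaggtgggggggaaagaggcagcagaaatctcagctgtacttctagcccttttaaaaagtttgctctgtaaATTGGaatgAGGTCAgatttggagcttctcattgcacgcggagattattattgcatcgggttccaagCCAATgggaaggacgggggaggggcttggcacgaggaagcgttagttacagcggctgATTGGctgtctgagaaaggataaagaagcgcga
Pou3f3: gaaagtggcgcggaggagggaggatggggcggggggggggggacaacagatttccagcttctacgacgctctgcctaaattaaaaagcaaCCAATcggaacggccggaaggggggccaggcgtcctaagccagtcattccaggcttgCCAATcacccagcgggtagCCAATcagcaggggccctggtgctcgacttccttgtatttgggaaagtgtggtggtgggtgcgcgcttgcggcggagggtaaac
Lhx6: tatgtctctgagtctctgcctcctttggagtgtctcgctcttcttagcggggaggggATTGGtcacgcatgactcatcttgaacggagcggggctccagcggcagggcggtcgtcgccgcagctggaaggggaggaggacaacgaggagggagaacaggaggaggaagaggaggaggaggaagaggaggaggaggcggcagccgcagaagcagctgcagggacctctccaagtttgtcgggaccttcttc

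The 236 bases of Sox4 held AGGTCA 1 time, 162 bases before the start, and CCAAT 3 times; Pou3f3 also held CCAAT 3 times, and Sox11 and Lhx6 1 time each. CCAAT was chosen after the sequences were seen. Of the other named members that changed, the Pax1 run held it 2 times and the Ascl4 and Foxp4 runs 0 times. No window was found for Lhx5 and Pax3. Another start of Lhx6 had a run that held CCAAT 1 time. RefSeq windows were found for 94 of the 139 members, 117 windows in all. The longer ERR element TNAAGGTCA, which contains AGGTCA, was searched on both strands and found in 0 of these 117 windows, against 1.14% of 32851 windows of all genes. AGGTCA was in 14 of the 117 (12.0%, against 14.0% of all windows) and CCAAT in 52 (44.4%, against 33.9%). The member windows had a median GC content of 60.8% against 52.4%, and a median of 13 CpG against 6. A match is a description of the letters in this window and does not show a binding site.

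Of the 139 members, 117 had a count in at least 1 library and 22 had none. In 73 members at least 1 library reached 10 counts, and in the other 44 the highest library held 1 to 9. The 73 included Ascl2, Ascl4, Foxa1, Foxa2, Foxa3, Foxc1, Foxc2, Foxf1, Foxf2, Foxj1, Foxj2, Foxj3, Foxk1, Foxk2, Foxl2, Foxm1, Foxn1, Foxn2, Foxn3, Foxo1, Foxo3, Foxo4, Foxo6, Foxp1, Foxp3, Foxp4, Foxq1, Hoxa2, Hoxa3, Hoxa5, Hoxb2, Hoxb3, Hoxb4, Hoxb5, Hoxb6, Hoxb7, Hoxb8, Hoxb9, Hoxc4, Hoxc5, Hoxc6, Hoxc9, Hoxd8, Lhx5, Lhx6, Pax1, Pax3, Pax6, Pax8, Pax9, Pou2f1, Pou2f2, Pou3f1, Pou3f3, Pou4f1, Pou5f2, Pou6f1, Six3, Six5, Sox3, Sox4, Sox5, Sox6, Sox7, Sox10, Sox11, Sox12, Sox13, Sox15, Sox17 and Sox21. Just inside this bound were Pax8, with 10 and 9 counts under ERRγ and 6 and 6 with GFP, and Pax6, with 6 and 2 against 5 and 10. Just outside it were Six4, with 7 and 9 against 2 and 3, and Foxd2, with 6 and 9 against none. The 14 of the 73 that did not pass the filter for the test included Ascl2, Foxo3, Hoxa2, Hoxc4, Hoxc5, Hoxc9, Pax6, Pax8, Pax9, Pou3f1, Six3, Sox3 and Sox10. The 22 with no count were Ascl5, Foxd4, Foxe1, Foxe3, Foxh1, Foxi1, Foxi2, Foxn4, Hoxa6, Hoxa13, Hoxb1, Hoxc11, Hoxc12, Hoxd1, Hoxd12, Lhx4, Pax4, Pax5, Pax7, Pou4f2, Pou4f3 and Six6, and a count of 0 allows up to the floor of 3 counts. The Fox family had the most members past the bound, 26 of 40, followed by Hox with 16 of 39 and Sox with 12 of 18. Together the members took 0.21% and 0.169% of counts under ERRγ and 0.215% and 0.218% with GFP.

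Among the 59 members that passed the filter for the test, 8 rose with ERRγ and 2 fell in edgeR's quasi-likelihood test, with p-values adjusted over all 13070 rows tested. Sox11, Lhx5, Lhx6, Pax1, Pax3, Pou3f3 and Ascl4 were among those that rose, and Sox4 and Foxp4 fell. The 8 are 13.6% of the members tested, against 5.06% of all rows that rose, and the 2 are 3.39% against 1.78% of all rows that fell. The share that rose differed with level. At the filter's cutoff of 0.947 CPM in all 4 libraries, 2 of 41 members rose (4.88%), Sox11 and Lhx5, close to the 4.66% of all 11814 rows that reached the cutoff in the 4 libraries. Of 7 members that passed the filter through both ERRγ libraries and no GFP library 6 rose, and of all 255 such rows 36.9% rose; such a row had to differ to be tested. The groups did not overlap in 30 of the 59 members (17 with ERRγ above, 13 below), and they did not overlap in 54.0% of all rows. The median log2 fold change of the members was −0.03 and that of all rows tested −0.01, with 29 members higher and 30 lower.

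**Figure D1:**
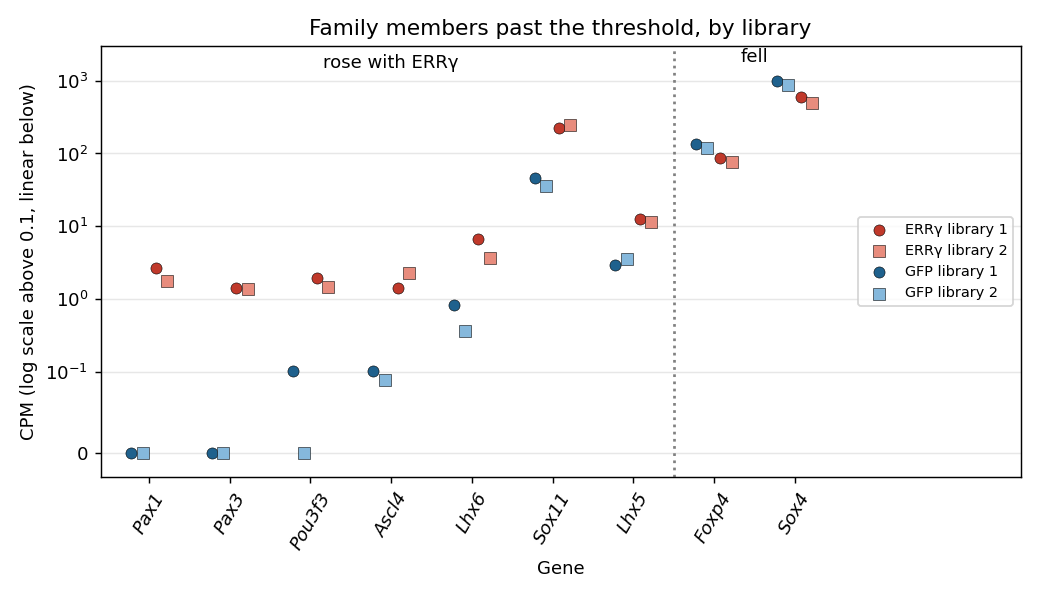
CPM of 9 of the 10 members past the threshold (vertical axis, logarithmic above 0.1 and linear below) in each of the 4 libraries, one column per gene. In every one of the 9 genes the 2 ERRγ points lie on one side of the 2 GFP points; Sox4, at 499 to 982 CPM, is the highest and Pax1 and Pax3 have GFP points at 0.

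Sox genes had the highest summed level of the families, at 1005 and 918 CPM under ERRγ and 1207 and 1105 CPM with GFP, and 2 close relatives in the SoxC group moved in opposite directions. Sox11, a SoxC factor of embryonic neural and epithelial progenitors, had 2514 and 2497 counts in ERRγ libraries 1 and 2 and 451 and 393 in GFP libraries 1 and 2. In CPM these were 224 and 247 against 46.1 and 35.3, so the groups lay far apart and the libraries of each group close together. Sox11 (chromosome 12, 27334264 to 27342574, minus strand, GRCm38) rose 5.79-fold, from 40.7 ± 7.69 to 236 ± 15.8 CPM (mean ± SD, n = 2; fitted log2 fold change 2.53, SE 0.17, adjusted p = 0.000348). Its call was kept in all 12 alternative fits, with log2 fold changes of 2.35 to 2.73 when a library was left out.

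Sox4, the SoxC factor with broad expression in progenitor and adult epithelia, was the highest member, with 6675 and 5055 counts under ERRγ and 9602 and 9772 with GFP. It fell 1.70-fold, from 930 ± 74.5 to 547 ± 68.0 CPM (fitted log2 fold change −0.76, SE 0.15, adjusted p = 0.0252), and both ERRγ libraries were below both GFP libraries. Sox4 (chromosome 13, 28948919 to 28953713, minus strand) overlaps Gm26735 on the opposite strand. The third SoxC gene, Sox12, stood at 9.81 and 9.78 CPM with ERRγ and 6.65 and 6.91 CPM with GFP and did not pass (log2 fold change 0.53, adjusted p = 0.302). Summed over the 3 genes, SoxC transcripts were 830 and 756 CPM with ERRγ and 1035 and 919 CPM with GFP. Sox4 made up 42.5% of the summed CPM of all members with GFP and 29.3% with ERRγ. The call for Sox4 ended without GFP library 1 (adjusted p = 0.265) or GFP library 2 (0.147). Of the 10 ductal cell markers, 3 also fell (Krt7, Krt8 and Muc1) and 1 rose (Cftr), where 1.78% of all rows fell and 5.06% rose. The part of ductal cells in the fall of Sox4 was not tested.

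None of the other 8 tested Sox genes passed the threshold in edgeR's test, at an unadjusted p under 0.05, or with DESeq2 or limma-voom. Sox15, of keratinocytes and placenta, was at 89.5 and 104 CPM with ERRγ and 99.2 and 112 CPM with GFP (log2 fold change −0.13, adjusted p = 0.657). Sox17 was at 47.2 and 29.9 CPM against 33.3 and 34.5 CPM, so the ERRγ libraries lay on either side of the GFP libraries (0.19, adjusted p = 0.659). Sox7, like Sox17 a SoxF factor known in endothelium, had 8 and 4 counts against 18 and 16 (−1.53, SE 0.69, adjusted p = 0.230). The endothelial cell markers summed to 28.4 to 29.5 CPM with ERRγ and 17.3 to 28.4 CPM with GFP, and their part in the value of Sox7 was not tested. Sox3, a SoxB1 factor of neural progenitors, had 11 and 7 counts under ERRγ and no GFP count, at least 2.90-fold higher against 3 counts in each GFP library. It did not reach the filter. The 3 SoxB1 genes together were at 1.25 and 1.28 CPM with ERRγ and at 0.102 and 0 CPM with GFP, which is few counts in every library. Sox10, of Schwann cells and neural crest, had 1 and 3 counts against 11 and 0.

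Both tested Lhx genes rose, and Lhx6 passed the filter through the ERRγ libraries alone. Lhx5, a LIM-homeodomain factor of the developing forebrain and spinal cord, had 139 and 117 counts under ERRγ and 29 and 39 with GFP. From 3.23 ± 0.377 CPM it rose 3.71-fold to 12.0 ± 0.596 CPM (fitted log2 fold change 1.88, SE 0.31, adjusted p = 0.0125). The libraries were close within each group. Lhx5 (chromosome 5, 120431699 to 120441223, plus strand) overlaps Gm27199 on the opposite strand. Lhx6, of cortical interneurons and the tooth and jaw mesenchyme, had 76 and 37 counts against 8 and 4. It rose 8.86-fold, from 0.589 ± 0.325 to 5.22 ± 2.21 CPM (fitted log2 fold change 3.15, SE 0.63, adjusted p = 0.0253; chromosome 2, 36081953 to 36105408, minus strand). ERRγ library 1, at 6.78 CPM, was above library 2, at 3.66 CPM, and both were above the GFP libraries. The other 6 Lhx genes had at most 8 counts in a library; Lhx9, the highest of them by mean CPM, had 2 and 3 counts against 3 and 5. The call for Lhx6 ended with limma-voom (adjusted p = 0.0512), and without GFP library 1 or 2 those for Lhx5 (0.150 and 0.102) and Lhx6 (0.144 and 0.194) ended.

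Pax1 and Pax3 had counts only in the ERRγ libraries. Pax1, a factor of the sclerotome, thymus and pharyngeal pouches, had 30 and 18 counts under ERRγ and no GFP count, at least 7.73-fold higher (adjusted p = 0.0205). Pax3, of the dorsal neural tube, neural crest and muscle precursors, had 16 and 14 counts and no GFP count, at least 4.88-fold higher (adjusted p = 0.0350). Both bounds are against 3 counts in each GFP library, and levels with ERRγ were 2.23 ± 0.635 CPM for Pax1 and 1.41 ± 0.0315 CPM for Pax3. Pax1 (chromosome 2, 147361925 to 147393295, plus strand) overlaps AI646519 on the opposite strand, and Pax3 lies on chromosome 1, 78101267 to 78197134, minus strand. The islet factors were low: Pax6 is given above and Pax4 had no count in any library. Pax9, a close relative of Pax1, had 0 and 10 counts under ERRγ and 9 and 13 with GFP. Without GFP library 1 or 2 the calls ended for Pax1 (adjusted p = 0.168 and 0.146) and Pax3 (0.252 and 0.218).

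Of 6 Pou genes tested 1 rose, and the most abundant did not pass. Pou3f3 (Brn1), of cortical neurons and kidney tubules, had 22 and 15 counts under ERRγ and 1 and 0 with GFP, a ratio of 36.3 with a 95% counting interval of 6.12 to 1471 (adjusted p = 0.0361). The width of the interval comes from the single GFP count. Pou3f3 passed the filter through the ERRγ libraries alone, so it had to be higher with ERRγ to be tested. Pou3f3 (chromosome 1, 42695768 to 42703176, plus strand) overlaps AC122898.1 on the same strand, so its reads may include those of that transcript. Pou2f1 (Oct1), a ubiquitous octamer-binding factor, was the highest at 49.9 and 65.1 CPM against 40.9 and 50.2 CPM (log2 fold change 0.33, adjusted p = 0.314). Pou6f1 had a log2 fold change of −0.03 (adjusted p = 0.975) and Pou5f2 of 0.09 (0.937). Pou4f1 (Brn3a), of sensory neurons, had 24 and 21 counts against 11 and 8 (1.19, adjusted p = 0.278), and Pou2f2 (Oct2), of B cells, had 23 and 19 against 30 and 50 (−0.94, adjusted p = 0.284). In both the groups did not overlap, and neither difference passed. The immune cell markers, with Cd3e at 0, summed to 6.96 and 15.8 CPM with ERRγ and to 9.62 and 10.6 CPM with GFP, and none of the 2 tested passed. Pou3f1 (Oct6), of Schwann cells and keratinocytes, had 6 and 31 counts against 8 and 1 and was not tested. The call for Pou3f3 ended without ERRγ library 1 (adjusted p = 0.0651), GFP library 1 (0.215) or GFP library 2 (0.279).

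Ascl4, a basic helix-loop-helix factor found in skin, was the tested Ascl gene. It reached the filter's cutoff in no GFP library, so it had to be higher with ERRγ to be tested. It had 16 and 23 counts under ERRγ and 1 and 1 with GFP, a ratio of 19.1 with a 95% counting interval of 4.95 to 163 (log2 fold change 4.11, SE 0.89, adjusted p = 0.0342). Ascl4 (chromosome 10, 85927681 to 85946206, plus strand) overlaps Rtcb, an RNA ligase gene on the opposite strand, which had a log2 fold change of −0.06 (adjusted p = 0.850). Ascl2, of intestinal stem cells and trophoblast, had 3 and 16 counts against 0 and 8. Its libraries differed within each group. For Ascl4 the call ended with limma-voom (adjusted p = 0.0508) and without ERRγ library 2 (0.146), GFP library 1 (0.293) or GFP library 2 (0.267).

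**Figure D2:**
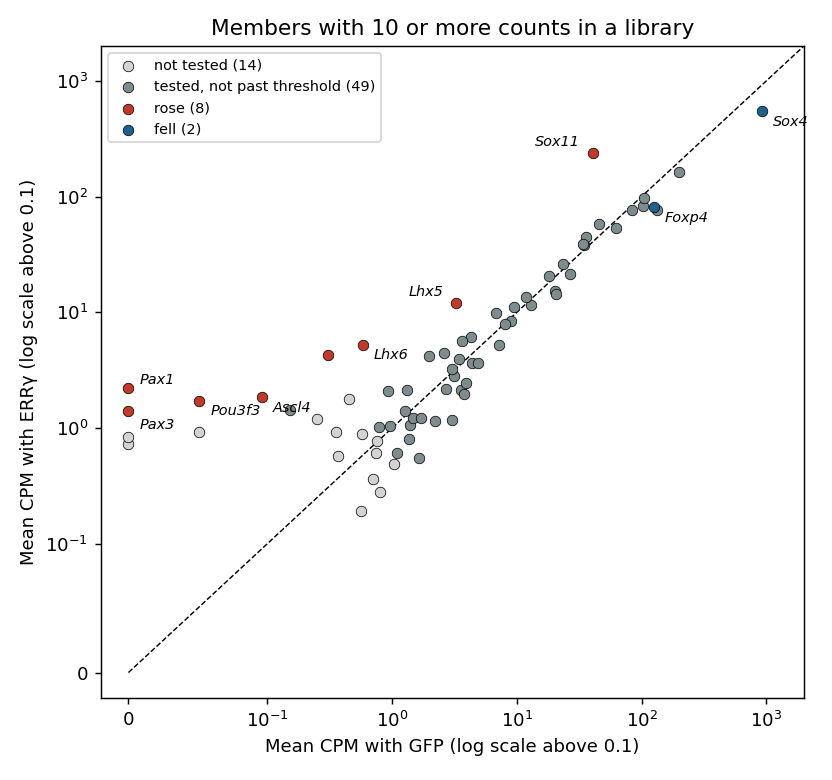
Mean CPM with GFP (horizontal axis) against mean CPM with ERRγ (vertical axis), both logarithmic above 0.1, for the 73 members with 10 or more counts in a library; the dashed line marks equal means and colours mark the 8 that rose, the 2 that fell, those tested and not past the threshold, and the 14 not tested. Sox11 and Lhx5 lie above the line at more than 1 CPM with GFP, whereas the other 6 that rose had a GFP mean under 1 CPM.

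Of 25 Fox genes tested 1 rose and 1 fell, and the family median was −0.15. At an unadjusted p under 0.05 in edgeR's test there were 5, and the share of all rows at that level was not counted. Foxp4, a repressor of lung and gut epithelium, had 970 and 766 counts under ERRγ and 1302 and 1321 with GFP. It fell 1.55-fold, from 126 ± 10.4 to 81.1 ± 7.69 CPM (fitted log2 fold change −0.63, SE 0.14, adjusted p = 0.0385; chromosome 17, 47867133 to 47924645, minus strand), with all ERRγ values below all GFP values. It overlaps Gm15556 on the opposite strand. Its call ended with library totals in place of TMM (adjusted p = 0.0713) and without GFP library 1 (0.317) or 2 (0.163). The relative Foxp1 was at 185 and 138 CPM against 202 and 199 CPM (−0.31, adjusted p = 0.299), which are values below the GFP libraries that did not pass. Foxq1, of hair follicle and gastric epithelium, had 1188 and 480 counts against 1142 and 1639 (−0.78, SE 0.33, adjusted p = 0.200), with ERRγ library 2 far below the other libraries.

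The FoxA genes, pioneer factors of endoderm, did not pass. Foxa2 was at 104 and 60.7 CPM with ERRγ and 95.6 and 111 CPM with GFP (log2 fold change −0.33, adjusted p = 0.451). Foxa1 had 0.22 (adjusted p = 0.769) and Foxa3 −0.15 (0.831). In Foxa2 and Foxa3 ERRγ library 2 was the lowest library, and in Foxa1 it was the highest, so the ERRγ libraries differed more from each other than the groups did. Foxo1, a factor held out of the nucleus by insulin signalling, had 0.31 (adjusted p = 0.418), and Foxo3 had 3 and 13 counts against 7 and 9. Foxm1, which drives genes of mitosis, had 42 and 36 counts against 41 and 51 (−0.26, adjusted p = 0.736). Foxo6, of the brain, had 10 and 20 counts against 3 and 0, a ratio of 9.81 (95% counting interval 3.05 to 50.2) that did not pass (adjusted p = 0.137). Of the mesenchymal forkhead genes, Foxf1 had 13 and 12 counts against 28 and 35 (−1.35, SE 0.51, adjusted p = 0.167), Foxc2 had 17 and 8 against 25 and 21 (−0.93, adjusted p = 0.402) and Foxc1 had 41 and 53 against 30 and 24 (0.77, adjusted p = 0.355). Their directions thus differed between genes.

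**Figure D3:**
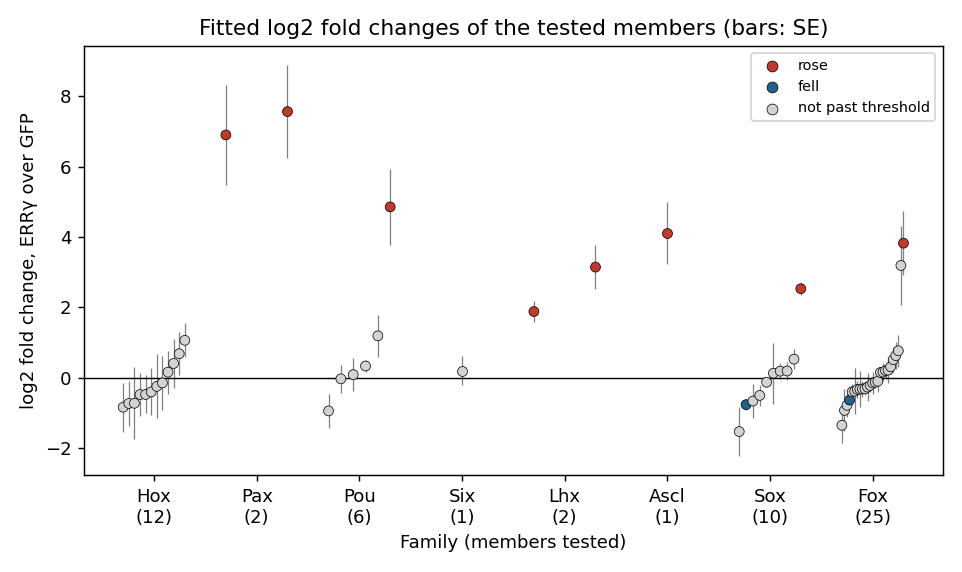
Fitted log2 fold changes, ERRγ over GFP (vertical axis), of the 59 tested members by family, with bars for the SE; red points rose, blue points fell and grey points did not pass. The 12 Hox points have a median of −0.32 and none is coloured. Both Pax and both Lhx points lie above 0. Of these, Pax1, Pax3 and Lhx6 reached the filter's cutoff in no GFP library, so they had to be higher with ERRγ to be tested.

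No Hox gene passed the threshold in edgeR's test, none of the 12 tested had an unadjusted p under 0.05, and DESeq2 and limma-voom called none. Of 39 Hox rows 32 had a count, 16 reached 10 counts and 12 were tested, 4 of them higher and 8 lower with a median log2 fold change of −0.32. Hoxa5 was the highest, with 83 and 30 counts under ERRγ and 99 and 49 with GFP (−0.47, SE 0.54, adjusted p = 0.655). Hoxb4 had 64 and 16 against 69 and 30 (−0.40, SE 0.67, adjusted p = 0.772). In both, library 1 was above library 2 in each group, and the groups overlapped. Hoxb9, at the far end of the tested HoxB genes, had 48 and 41 counts against 25 and 16 (1.07, SE 0.49, adjusted p = 0.239), with no overlap. Hoxb8 had 6 and 7 against 11 and 12 (−0.84, adjusted p = 0.522). Hoxc9, with 12 and 8 counts against 1 and 0, was below the filter (ratio 19.6, 95% counting interval 3.14 to 813). Single libraries turned the direction of both Hoxa5 and Hoxb4. The log2 fold change of Hoxa5 was −1.28 without ERRγ library 1, 0.03 without ERRγ library 2 and 0.24 without GFP library 1. That of Hoxb4 was 0.24 without ERRγ library 2 and 0.44 without GFP library 1.

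The Hox genes differed between the libraries numbered 1 and 2 of each group. Summed over all Hox rows, the level was 40.8 and 23.1 CPM in ERRγ libraries 1 and 2 and 45.2 and 21.5 CPM in GFP libraries 1 and 2, which are ratios of 1.76 and 2.11. All 6 of Hoxb2 to Hoxb7 were higher in library 1 than in library 2 with ERRγ, and all 6 with GFP. Their summed level was 18.8 and 5.24 CPM in ERRγ libraries 1 and 2 and 22.1 and 9.42 CPM in GFP libraries 1 and 2, ratios of 3.60 and 2.35. This run was picked with earlier results of these data known, and it leaves out Hoxb8 and Hoxb9. Hoxb8 had library 1 to library 2 ratios of 0.774 with ERRγ and 1.05 with GFP, and Hoxb9 of 1.06 and 1.78. Over the whole HoxB cluster the ratios were 2.32 and 2.16. Of the 16 Hox genes with 10 or more counts, 12 were higher in library 1 in both groups and 1 was lower in both. The 12 mesenchymal and stellate cell markers, none of them at 0, summed to 1034 and 709 CPM with ERRγ and to 1250 and 725 CPM with GFP, ratios of 1.46 and 1.73, and 6 of the 12 were higher in library 1 in both groups. The 12 islet endocrine cell markers summed to 57.3 and 16.1 CPM and to 223 and 33.8 CPM, and 9 of the 12 were higher in library 1 in both groups. In the other lists, 8 of 12 acinar, 4 of 10 endothelial and 2 of 10 Schwann and neural markers were higher in library 1 in both groups. So were 0 of 10 ductal and 0 of 10 immune markers. The share over all rows was not counted, and the part of any of these cells in the Hox values was not tested. Several Hox genes overlap each other in the annotation, such as Hoxa3 with Hoxa4 to Hoxa6 and Hoxc5 with Hoxc6, so that reads may be shared between them.

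**Figure D4:**
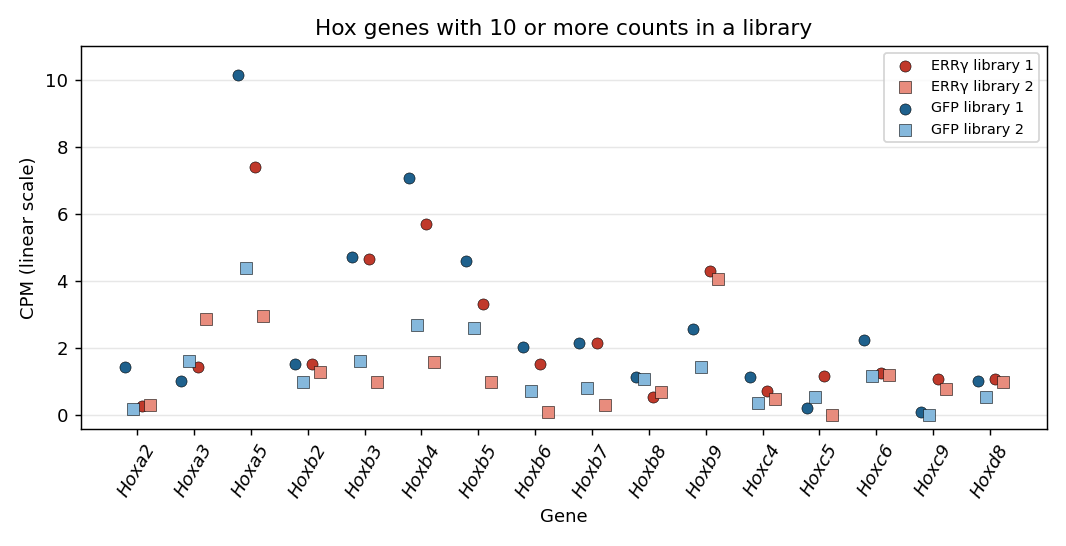
CPM on a linear scale (vertical axis) of the 16 Hox genes with 10 or more counts in a library, for the 4 libraries. In Hoxb2 to Hoxb7 the circles of library 1 lie above the squares of library 2 within each colour, ERRγ in red and GFP in blue.

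Of the sine oculis homeobox genes, Six5 was tested and did not pass (46 and 39 counts under ERRγ, 36 and 36 with GFP, log2 fold change 0.20, adjusted p = 0.813). Six3, of the forebrain and eye, had 16 and 10 against 4 and 1. Six3 and Six4 were too low to be tested, and both had more counts in each ERRγ library than in either GFP library.

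More members had a count in each ERRγ library than in either GFP library. Of the 117 members with a count, 95 and 107 had one in ERRγ libraries 1 and 2, against 89 and 79 in GFP libraries 1 and 2. Over all rows the numbers were 16191 and 16205 against 15829 and 15720. Counts in both ERRγ libraries and in no GFP library were found for 11 of the 117 (9.40%), against 1.93% of the 17888 rows with a count. These shares are not of like level: 44 of the 117 members stayed at 1 to 9 counts, against 3972 of the 17888 rows. Among the 11 were Foxd2, Hoxa10, Hoxa11, Hoxd11, Hoxd13, Pax1, Pax3, Pou2f3, Sox3 and Sox8, and 7 of the 11 stayed under 10 counts in every library. The reverse, counts in both GFP libraries alone, was found for 1 member (0.855%), against 0.777% of all rows. The 44 members with 1 to 9 counts at most summed to 82 and 118 counts under ERRγ and to 50 and 33 counts with GFP. These are few reads, and a library's value for any one of them is uncertain.

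The rises were mostly of genes low with GFP. Of the 8 members that rose, 6 had a GFP mean under 1 CPM. In 6 the ERRγ library 1 value exceeded that of library 2, by little in Pax3 (1.43 and 1.38 CPM) and Lhx5 (12.4 and 11.6 CPM). Esrrg was higher in library 2, as were Sox11 and Ascl4, and the part of the Esrrg level in the rises was not tested. Summed over the 8 genes, the level was 255 and 273 CPM with ERRγ and 50.7 and 39.2 CPM with GFP, most of it Sox11. Several of the 8 are known from neural tissue, and the Schwann and neural cell markers were counted beside them. That list summed to 148 and 118 CPM with ERRγ and to 133 and 97.2 CPM with GFP, ranges that overlap. None of its 4 tested genes passed in edgeR's test or with DESeq2. At an unadjusted p under 0.05 there was 1, and the share of all rows at that level was not counted. These 4 of the 10 listed genes were all higher, with a median log2 fold change of 1.02. The rest did not pass the filter, and their directions were not counted. Sox10, among the rest, had 1 and 3 counts with ERRγ against 11 and 0 with GFP. The part of neural cells in the rises was not tested.

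Genes near the members that changed were read in the same fit. Within 200 kb, 6 of the 8 members that rose had tested neighbours, 20 in all, of which 1 rose and none fell (median log2 fold change 0.06), where 5.06% of all rows rose and 1.78% fell. The neighbours' count is near that background. The one that rose was Tpcn1, a lysosomal cation channel gene 92930 bases from Lhx5 (1.78, adjusted p = 0.00101). Nkx2-2, an islet factor 167682 bases from Pax1, had 0.26 (adjusted p = 0.733). Around Sox4 and Foxp4, 5 neighbours were tested and none passed.

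The partners and targets of these families were described from 9 lists of 136 distinct genes, of which 117 were tested, 3 rose and 3 fell. Over all rows 5.06% rose and 1.78% fell, and the lists' counts are read as a description beside these shares. Among pancreas regulators outside the families, Klf4, a zinc-finger factor of epithelial differentiation and ductal metaplasia, was the 1 of 21 tested that rose, from 44.6 and 56.5 CPM with GFP to 147 and 313 CPM with ERRγ (log2 fold change 2.18, adjusted p = 0.00896). Hes1, the Notch effector and the highest of the list by mean CPM, had 0.21 (adjusted p = 0.427). The cofactors of Hox, sine oculis homeobox and Lhx proteins gave no call in edgeR's test: 0 of 10 TALE genes (Tgif1 highest, −0.27, adjusted p = 0.324), 0 of 3 Eya and Dach genes (Eya3 highest, 0.15, 0.584) and 0 of 7 LIM-domain cofactors (Ssbp3 highest, −0.22, 0.458). At an unadjusted p under 0.05 these lists had 3, 0 and 3 genes, and DESeq2 called 0, 0 and 1. Over all rows DESeq2 called 1162 of 13070. The share of all rows at an unadjusted p under 0.05 was not counted, here or for the other lists. None of 5 Groucho corepressors passed, with Aes at 0.46 (adjusted p = 0.0972); 1 had an unadjusted p under 0.05 and DESeq2 called 1, Aes. Of 25 Polycomb and Trithorax regulators of Hox genes, Jarid2, a subunit of Polycomb repressive complex 2, rose from 28.1 and 34.5 to 63.4 and 68.4 CPM (1.07, adjusted p = 0.00806). Cbx6, of Polycomb repressive complex 1, fell from 375 and 411 to 264 and 258 CPM (−0.59, adjusted p = 0.0392), and the list median was −0.22.

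Of 20 FoxO target genes tested, Sod2, the mitochondrial superoxide dismutase, rose from 66.2 and 70.8 to 170 and 175 CPM (log2 fold change 1.34, adjusted p = 0.00168), and Cdkn1a, the highest, did not pass (0.63, adjusted p = 0.220). The list median was 0.17. None of 15 FoxM1 target genes passed, and 14 of the 15 were lower with a median of −0.37, Top2a, the topoisomerase of dividing cells, at −0.74 (adjusted p = 0.0991). Of these 15, 4 had an unadjusted p under 0.05 and DESeq2 called 1. Top2a was called lower in edgeR's test with no filter (adjusted p = 0.000802), a setting that called 2009 of all rows against 894 with the filter. Among 11 Wnt and YAP partners of Sox proteins, the YAP-binding factors Tead1 (−0.68, adjusted p = 0.0312) and Tead2 (−0.64, adjusted p = 0.0287) fell, and Ctnnb1, which encodes β-catenin, had 0.09 (0.756). Without GFP library 1 the calls ended for Klf4 (adjusted p = 0.146), Jarid2 (0.127), Cbx6 (0.229), Sod2 (0.0587), Tead1 (0.291) and Tead2 (0.237). Without GFP library 2 they ended for Klf4 (0.0833), Jarid2 (0.0591), Cbx6 (0.292), Tead1 (0.132) and Tead2 (0.182), and with library totals for Cbx6 (0.0510) and Tead2 (0.0544).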

How the data were processed

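Read counts per gene symbol were deposited by the authors as whole numbers, without normalization, in 1 table per library (4 in all). Per the labels' protocols the RNA was Trizol-extracted and sequenced near transcript ends. Per the submitters' processing notes, Bowtie2, edgeR and mm10 were used, without versions. The counting tool, its use of strand and its handling of multiply matching reads were not given in the sources used here, so overlapping genes may share reads. PCR copies were not told apart, and the intervals and floors therefore hold for counting error alone.

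Rows were kept by filterByExpr (minimum count 10, group given), which left 13070 of 17888 rows with a count. Counts were scaled by TMM and fitted by group with glmQLFit and glmQLFTest in edgeR 4.0.16 (R 4.3.3), with 2 residual degrees of freedom. P-values are two-sided and adjusted by Benjamini-Hochberg over all rows tested, with a threshold of 0.05. TMM factors were 1.071, 0.952, 0.968 and 1.013. The SE was taken as the absolute log2 fold change over the root of F. The procedure was tested on simulated data with changes planted only in genes at a mean of 5 CPM or more. That test does not cover members below this level. Where GFP had no count, folds were bounded from below with 3 counts per library; with 1 to 3 GFP counts in all, the ratio has an exact 95% counting interval.

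Named genes were all members past the threshold, the 3 highest of each family, 11 regulators whatever they showed, the 10 largest non-overlapping differences that did not pass, and members with no count in a group and 10 or more in a library of the other. From the partner lists, genes past the threshold and the highest of each were named. Other names spell out small counts or were chosen after values were seen (Sox12, Hoxc9, Sox10, Pou3f1, Foxd2, Tpcn1 and Nkx2-2). Members and lists were chosen with earlier results of these data known. The 12 alternatives were 2 other scalings, 2 other filters, DESeq2 1.42.0, limma-voom (limma 3.58.1), a replicate block, the pre-ribosomal RNA Rn45s left out and each library left out. Results that need 4 of the members by name are not reported here, and these stay in the counts. Positions come from GENCODE M21 on GRCm38, matched by symbol for 139 of 139 members.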

Additional observations from a re-analysis of the deposited data

How the results depend on the processing

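The 8 rises among the members were 2 with the filter at a mean of 5 CPM, which leaves out low genes, and 6 with limma-voom; they ranged from 1 to 9 when a library was left out. The 2 falls were 1 with library totals and 0 to 7 without a library. All rows called, 894, became 2009 with no filter and 99 to 2695 without a library, and the partner genes called, 6, became 10 with DESeq2, 29 with no filter, 10 with the replicate block and 0 to 36 without a library. Of the 10 calls among members, Sox11 was the one kept without GFP library 1 and without GFP library 2, where the spread comes from the ERRγ pair alone. The replicate block ended none of the 10. Same-numbered libraries did not deviate together over the 13070 rows (r = 0.007 across genes, which are not independent), and with 2 libraries per group the numbers do not show pairing. Without ERRγ library 1, Foxq1 (log2 fold change −1.48), Foxa2 (−0.77), Foxp1 (−0.54), Sox21 (−0.99) and Hoxa5 (−1.28) were also called lower and Foxo1 (0.58), Pou2f1 (0.51) and Pou3f1 (2.77) higher. The signs of Foxa1, Foxa2, Foxa3, Foxo1, Sox17, Pou6f1 and Pou5f2, none of them called with all libraries, turned when some single library was left out. Top2a, not called without the block, was called lower with the replicate block (−0.72, adjusted p = 0.0282). Genes at 10 to 30 counts a library are limited by depth, and the cause of these changes was not tested.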
